A study of Sus scrofa with 6 samples.

Results

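A set of 7 genes of the connective-tissue matrix was followed in lymphoid organs of RAG2-knockout and wild-type pigs: DCN, EFEMP1, MFAP5, LOX, COL5A2, THY1 and TIMP1. They are 7 of the 4122 genes in the tables, taken by name. They were chosen from their FPKM and count differences between knockout and wild type in these same libraries. Their differences are therefore a description and carry no test. RNA was sequenced from the lymph node, spleen and thymus of pigs with a biallelic RAG2 knockout and of wild-type littermates, all 3 months old. The series title speaks of a deletion of a single amino acid and of SCID, severe combined immunodeficiency. Each tissue and genotype had 1 library, 6 in all, so no difference has a replicate check and no p-value is given. The labels give no sex and no sign of which tissues share an animal, and no other allele or treatment is named for any group.

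RAG2 is a subunit of the recombinase that cuts and rejoins antigen receptor genes, and without it T and B cells do not mature. Lymphoid organs are built on a framework of fibroblasts and fibres. Decorin (DCN) is a small leucine-rich proteoglycan that binds collagen fibrils and TGF-beta. EFEMP1, also called fibulin-3, and MFAP5, a microfibril-associated glycoprotein, belong to the elastic fibre system. LOX is the lysyl oxidase that cross-links collagen and elastin, and COL5A2 encodes a chain of type V collagen, which sits inside type I collagen fibrils and regulates their width. THY1 is a surface glycoprotein of fibroblasts, and in the mouse it is also the classical antigen of thymocytes and T cells. TIMP1 is a secreted inhibitor of matrix metalloproteinases, the enzymes that degrade this matrix.

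Levels are in FPKM, fragments normalised to transcript length and to library depth, so they can be compared between genes of a library. The tables of the 3 tissues were made separately, so an order across tissues is a description only. With 1 FPKM added to each level, a gene was called higher or lower where the knockout exceeded or undershot the wild type by at least 1 on the log2 scale, the log2 ratio given throughout. The added 1 FPKM understates the change of low genes. Genes with at least 1 FPKM in either library of a tissue were taken as measured. Folds come from fragment counts scaled between libraries, and the bounds in brackets after them are 95% Clopper-Pearson bounds for counting error alone. Fragments on listed genes numbered 1922562 to 2541724 per library, and the 7 genes together took 4951 to 18933 of them.

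RAG2 itself stood at 1072 FPKM in the knockout and 606 FPKM in the wild-type thymus. It had 5 fragments in the knockout and 0 in the wild-type lymph node, and 0 in the knockout and 4 in the wild-type spleen. The edit named in the title is small, so the RNA level does not check the genotype labels. The tissue labels were checked against marker genes present in the tables. The thymus markers PTCRA, RAG-1, RAG2 and CCL25 summed to 9232 FPKM in the knockout and 5765 FPKM in the wild-type thymus, and to at most 11.5 FPKM in the other 4 libraries. The lymph node markers CCL21, CCL19 and PROX1 summed to 4423 FPKM in the knockout and 4633 FPKM in the wild-type lymph node, 2233 and 449.7 FPKM in spleen and 52.0 and 288 FPKM in thymus, knockout first. CCL19, a chemokine of lymphoid stroma, went against the label in spleen, at 2097 FPKM in the knockout and 109 FPKM in the wild type, where the wild-type lymph node had 2163 FPKM. The knockout spleen is also the library with the highest TIMP1 level, and the part of CCL19-expressing cells was not tested. HBB, the red-cell gene used as a marker of the blood-rich spleen, was highest in spleen, at 18970 FPKM in the knockout and 41406 FPKM in the wild type. CD163, the other spleen marker listed, was at 0 fragments in all 6 libraries. T-cell and B-cell markers differed with genotype, but not alike in every organ. In lymph node the 10 T-cell markers summed to 225 FPKM in the knockout and 1675 FPKM in the wild type, and the 4 B-cell markers to 4.50 and 1493 FPKM in the same order of genotype. In thymus the 4 B-cell markers summed to 185 FPKM in the knockout and 150 FPKM in the wild type, although 2 of the 4 were called lower.

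All 7 genes were measured in every tissue. DCN and EFEMP1 were called higher in the knockout lymph node and lower in the knockout spleen, TIMP1 was higher in all 3 organs, and THY1 and COL5A2 were each lower in 2 organs. In lymph node 5 were higher in the knockout, 1 was lower and 1 was not called, where 15.3% of the 2910 measured genes overall lay higher and 10.3% lower. In spleen 1 was higher, 5 lower and 1 not called, and 1 of the 5, MFAP5, rested on 0 and 3 fragments. There 8.88% of the 2849 measured genes lay higher and 10% lower. In thymus 2 were higher, 1 lower and 4 not called, where 15.2% of the 2908 measured lay higher and 10.9% lower. The members' median log2 ratio was 1.97 in lymph node, -1.44 in spleen and 0.53 in thymus, while the median of all measured genes was -0.0046, -0.016 and -4.7e-05. These counts follow from the choice of members, and nothing is read from them. In bulk tissue, fewer cells of a type and less RNA per cell cannot be told apart.

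**Figure D1:**
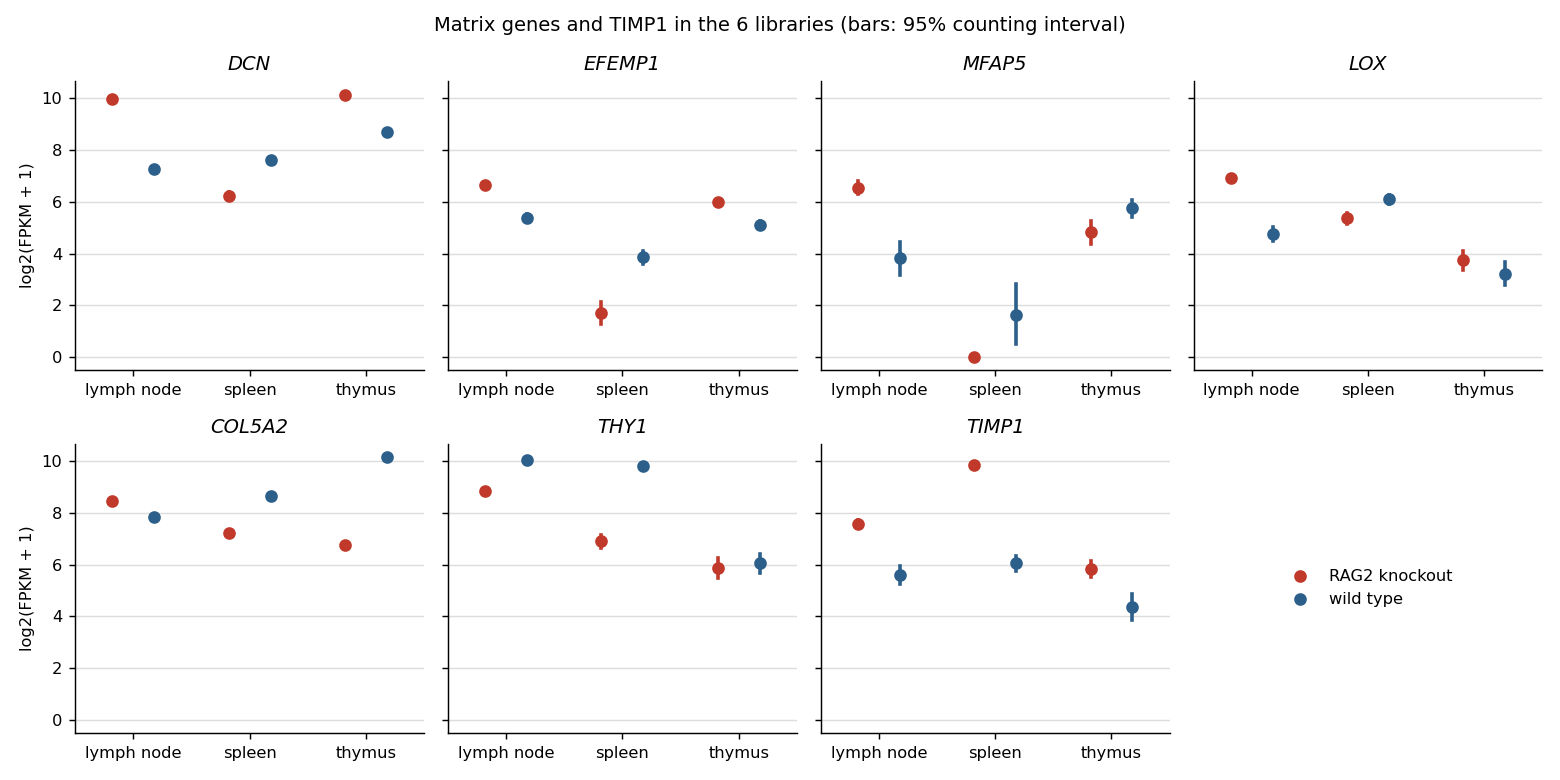
Level of each gene as log2(FPKM + 1) in the knockout (red) and wild-type (blue) library of each tissue, 1 library per point, with bars for the 95% counting interval. DCN runs from 73.7 FPKM in the knockout spleen to 1115 FPKM in the knockout thymus, and COL5A2 reaches its highest level, 1130 FPKM, in the wild-type thymus.

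DCN, the proteoglycan, was higher in the knockout lymph node and thymus and lower in the knockout spleen. Its level in lymph node was 1008 FPKM in the knockout and 152 FPKM in the wild type, on 4056 and 584 fragments. This is a 6.64-fold difference (interval 6.09 to 7.26), and 91 of the 2910 measured genes had a higher log2 ratio. In thymus DCN stood at 1115 FPKM in the knockout and 420.5 FPKM in the wild type, 2.65-fold higher (2.51 to 2.80). Only 107 of the 4122 listed genes had a higher FPKM in the knockout thymus, against 285 in the wild-type thymus. In spleen the direction turned, with 73.7 FPKM in the knockout and 195 FPKM in the wild type, 2.63-fold lower (2.31 to 2.99). Ordered by level, the libraries ran knockout thymus, knockout lymph node, wild-type thymus, wild-type spleen, wild-type lymph node and knockout spleen, and no neighbouring pair had overlapping counting intervals.

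DCN (chromosome 5, 91678601 to 91713925 in Sscrofa11.1) lies 34946 bases from the gene of a sister proteoglycan, LUM (lumican), which also coats collagen fibrils. LUM did not follow DCN in every organ. In lymph node LUM had 251 FPKM in the knockout and 160.3 FPKM in the wild type, a log2 ratio of 0.64 that is short of a call, whereas that of DCN was 2.72. In spleen both were lower, LUM at 4.52 FPKM in the knockout and 15.2 FPKM in the wild type. In thymus LUM was 2.66-fold lower (2.23 to 3.19), at 31.5 FPKM in the knockout and 83.8 FPKM in the wild type, while DCN was higher. LUM in lymph node was named as the neighbour of DCN and chosen after its values were seen. Another proteoglycan of this family, ASPN (asporin), was lower in spleen, at 10.1 FPKM in the knockout and 57.5 FPKM in the wild type, and in thymus, at 6.95 and 15.9 FPKM in the same order of genotype.

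EFEMP1 (chromosome 3, 85407677 to 85473251) showed the same turn between lymph node and spleen as DCN. It stood at 101 FPKM in the knockout and 40.3 FPKM in the wild-type lymph node, 2.50-fold higher on 890 and 340 fragments (2.21 to 2.85). In spleen it was 5.99-fold lower (3.81 to 9.82), with 2.26 FPKM in the knockout and 13.6 FPKM in the wild type, on 23 and 118 fragments. In thymus it reached 62.5 FPKM in the knockout and 33.6 FPKM in the wild type. That log2 ratio of 0.88 missed the size threshold, although the fold of 1.86 had an interval above equal levels (1.61 to 2.15). Among its 6 levels only those of the wild-type lymph node and wild-type thymus had overlapping counting intervals.

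MFAP5 (chromosome 5, 62742520 to 62757522) was the least abundant of the 7 in lymph node and spleen. In lymph node it had 93.0 FPKM in the knockout and 13.4 FPKM in the wild type, from 140 and 19 fragments, a 7.05-fold difference (4.35 to 12.1). In thymus it had 27.6 FPKM in the knockout and 53.1 FPKM in the wild type, a log2 ratio of -0.92 that missed the threshold. In spleen it was close to the detection limit, with 0 fragments in the knockout and 3 in the wild type. A count of 0 allows up to 3 fragments, so no fold is given, and the spleen call in this gene rests on 3 fragments. It was lost with a pseudocount of 5 FPKM (log2 ratio -0.50), with a minimum of 5 FPKM and by the counting interval. By level the libraries ran knockout lymph node, wild-type thymus, knockout thymus, wild-type lymph node, wild-type spleen and knockout spleen, with overlapping counting intervals for the knockout thymus and wild-type lymph node.

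Only 3 of the 17 genes on the elastic fibre list were present in the data, EFEMP1, MFAP5 and FBN1. The last encodes fibrillin, the backbone of microfibrils. FBN1 was lower in thymus, at 71.2 FPKM in the knockout and 151 FPKM in the wild type (log2 ratio -1.08), a call that was lost when fragments were scaled to the library total. It was not called in lymph node (353 FPKM in the knockout, 201 FPKM in the wild type) or spleen (128 and 250.2 FPKM in the same order of genotype). With the members included, 2 of the 3 genes present were higher in lymph node, 2 of 3 lower in spleen and 1 of 3 lower in thymus. In lymph node and spleen the called genes were the members EFEMP1 and MFAP5, so the counts there follow from the choice of members. The MFAP5 call in spleen rests on 0 and 3 fragments.

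LOX (chromosome 2, 125595115 to 125607026) was higher in the knockout lymph node, with 121 FPKM against 26.4 FPKM in the wild type, on 518 and 108 fragments. The fold was 4.59 (3.72 to 5.70). In spleen LOX had 40.1 FPKM in the knockout and 67.4 FPKM in the wild type, and in thymus 12.5 and 8.39 FPKM in the same order of genotype; neither passed the threshold. The thymus interval included equal levels (0.962 to 2.34). LOX was highest in the knockout lymph node, followed by the wild-type spleen, knockout spleen and wild-type lymph node. The 2 thymus libraries held the lowest levels of the 6, and their counting intervals overlapped. The other measured genes of collagen processing, P4HA1, a prolyl hydroxylase subunit, and SERPINH1, a collagen chaperone, were not called in any tissue. In the lymph node SERPINH1 stood at 626 FPKM in the knockout and 529.6 FPKM in the wild type, a log2 ratio of 0.24, where LOX had 2.15. These 2 genes were named after their values were seen.

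COL5A2 (chromosome 15, 93611856 to 93981131) differed most in thymus. It had 108 FPKM in the knockout thymus and 1130 FPKM in the wild-type thymus, from 1634 and 16736 fragments. This was 10.5-fold lower in the knockout (9.97 to 11.0), and 36 of the 2908 measured genes had a lower log2 ratio. In spleen it was 2.72-fold lower (2.59 to 2.85), at 149 FPKM in the knockout and 406 FPKM in the wild type. In lymph node it had 347 FPKM in the knockout and 231 FPKM in the wild type, 1.50-fold higher (1.44 to 1.57) and short of a call. The wild-type thymus held the highest COL5A2 level of the 6 libraries and the knockout thymus the lowest. No neighbouring pair in this order had overlapping counting intervals.

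The collagen genes COL1A2 and COL3A1 differed less than COL5A2 between the 2 thymus libraries. Type V collagen is mostly built from COL5A1 and COL5A2 chains and co-assembles with type I collagen, of which COL1A2 encodes a chain. COL5A2 stood at 0.464 times the FPKM of COL1A2 in the knockout thymus and at 3.43 times in the wild-type thymus. In spleen the same ratio was 0.267 in the knockout and 0.273 in the wild type, and in lymph node 0.363 and 0.342. Relative to COL1A2, the knockout and wild-type ratios thus lay close together in both organs. Other collagens as denominator gave other values. Relative to COL5A1, the knockout ratio was 0.583 times the wild-type ratio in spleen, 0.771 times in lymph node and 0.244 times in thymus. In spleen COL5A1 had 37 fragments in the knockout and 50 in the wild type (fold 0.63, 0.40 to 0.99). In lymph node it had 1921 and 943 fragments in the same order of genotype. Relative to COL3A1, the knockout ratio was 0.809 times the wild-type ratio in spleen, 1.028 times in lymph node and 0.128 times in thymus. COL1A2 itself had 232 FPKM in the knockout and 329 FPKM in the wild-type thymus, and COL5A1 had 0.961 FPKM on 4 fragments and 2.46 FPKM on 10 fragments. The interval of the COL5A1 fold, 0.089 to 1.35, includes the COL5A2 fold of 0.095. Whether COL5A1 differed less than COL5A2 therefore cannot be told. COL3A1, which lies 16178 bases from COL5A2 and encodes type III collagen, had 690.1 FPKM in the knockout and 924 FPKM in the wild-type thymus. These partner genes were chosen after their values were seen, since they were not called in thymus.

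**Figure D2:**
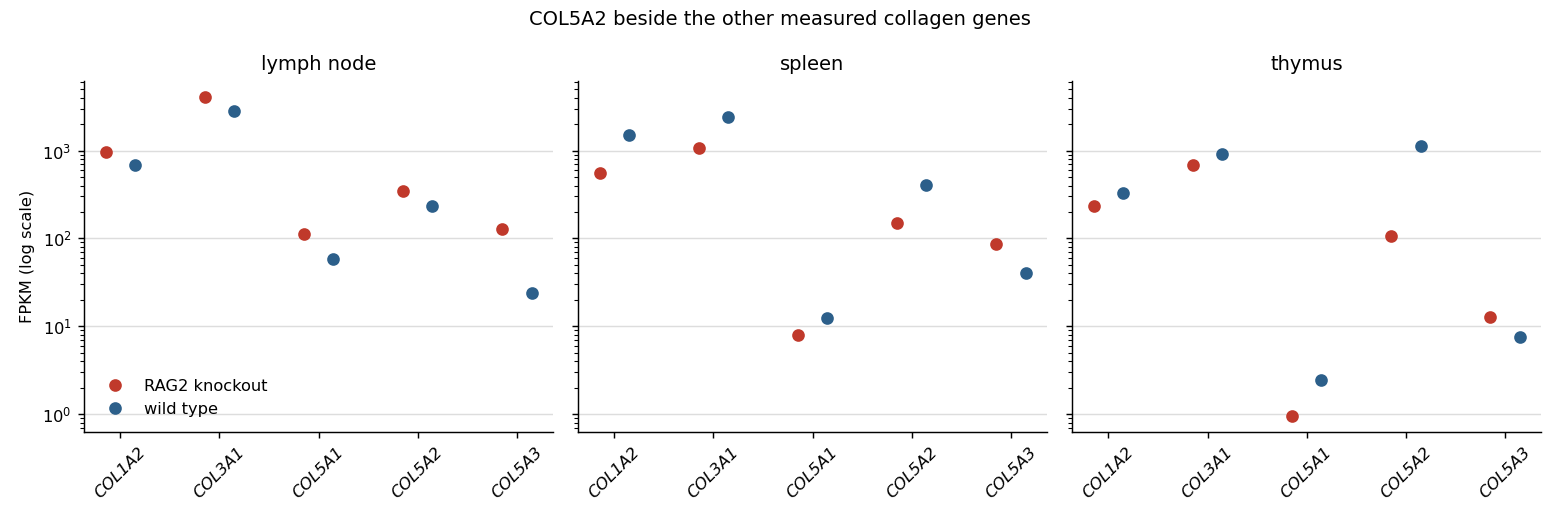
FPKM on a log scale of 5 collagen genes in the knockout (red) and wild-type (blue) library of each tissue, 1 library per point. In thymus COL5A2 stands at 108 FPKM in the knockout and 1130 FPKM in the wild type, while COL1A2 stands at 232 and 329 FPKM and COL3A1 at 690.1 and 924 FPKM.

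In spleen COL1A2 and COL3A1 were lower in the knockout together with COL5A2. COL1A2 was 2.65-fold lower (2.59 to 2.72), at 558 FPKM in the knockout and 1484 FPKM in the wild type, and COL3A1 was lower (log2 ratio -1.14), at 1077 and 2374 FPKM in the same order of genotype. Of 5 measured collagen genes 3 were lower and 1 higher in spleen (median log2 ratio -1.14). The higher gene was COL5A3, another type V chain, at 86.0 FPKM in the knockout and 40.4 FPKM in the wild type. COL5A3 was also the 1 collagen gene called in lymph node, 5.29-fold higher (4.74 to 5.93), with 127 FPKM in the knockout and 24.0 FPKM in the wild type (list median 0.58). In thymus COL5A2 was the only 1 of 5 called (list median -0.50). With a pseudocount of 0.1 FPKM, or with fragments scaled by total, TMM or DESeq2 factors, 2 were lower there. Without COL5A2 the list medians were 0.75 in lymph node, -0.87 in spleen and -0.46 in thymus.

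THY1 (chromosome 9, 46607022 to 46612691) was lower in both peripheral organs and did not pass the threshold in thymus. In lymph node it had 456 FPKM in the knockout and 1052 FPKM in the wild type, 2.26-fold lower (2.02 to 2.54). In spleen it had 119 FPKM in the knockout and 910.3 FPKM in the wild type, 7.41-fold lower (6.15 to 8.98), and 33 of the 2849 measured genes had a lower log2 ratio. In thymus it had 57.6 FPKM in the knockout and 65.4 FPKM in the wild type, with an interval that included equal levels (fold 0.88, 0.60 to 1.29). The order of levels was wild-type lymph node, wild-type spleen, knockout lymph node, knockout spleen and then both thymus libraries, whose intervals overlapped. The highest level was 18.3 times the lowest.

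The order of THY1 over the organs differed from that of CD3E, a chain of the T-cell receptor complex that was chosen after its values were seen. THY1 was lowest in thymus in wild type, where CD3E was highest, at 918 FPKM in the knockout and 1685 FPKM in the wild-type thymus. In lymph node CD3E had 0.929 FPKM in the knockout and 292 FPKM in the wild type, and in spleen 2.16 and 155 FPKM in the same order of genotype. Other T-cell genes did not all follow CD3E. CD3D, another chain of that complex and also chosen after its values were seen, was not called in spleen. It had 92.9 FPKM in the knockout and 83.7 FPKM in the wild-type spleen. In the knockout spleen, where THY1 was 7.41-fold lower, 5 of 10 T-cell markers were lower (summed FPKM 295 in the knockout and 597 in the wild type), and all 4 B-cell markers were lower (6.63 and 496 FPKM summed). Their part in the THY1 difference was not tested. Of the other measured genes on the fibroblast surface list, CAV1, the coat protein of caveolae, was higher in lymph node (515 FPKM in the knockout, 187 FPKM in the wild type) and in thymus (91.4 and 32.3 FPKM). DPP4, a cell-surface peptidase, was higher in thymus, at 47.3 FPKM in the knockout and 18.6 FPKM in the wild type. Of the 21 genes on this list 5 were present and measured. THY1 was the 1 gene of these 5 that was lower in lymph node or spleen, and none was lower in thymus. The list medians were 0.40 in lymph node, -0.24 in spleen and 0.44 in thymus. Without THY1 they were 0.58, 0.095 and 0.87, so the sign in spleen turned.

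TIMP1 (chromosome X, 42103251 to 42106289) was higher in the knockout in every organ, most of all in spleen. The knockout spleen had 919.9 FPKM and the wild-type spleen 65.0 FPKM, on 1733 and 103 fragments, a 14.4-fold difference (11.8 to 17.8). Of the 2849 measured genes 16 had a higher log2 ratio. In lymph node it had 191 FPKM in the knockout and 47.8 FPKM in the wild type, 4.03-fold higher (3.12 to 5.27). In thymus it had 56.0 FPKM in the knockout and 19.7 FPKM in the wild type, 2.84-fold higher on 93 and 32 fragments (1.88 to 4.38). The knockout spleen stood apart from the other 5 libraries, which lay between 19.7 and 191 FPKM. After it came the knockout lymph node, then the wild-type spleen, knockout thymus and wild-type lymph node, whose neighbouring intervals overlapped, and last the wild-type thymus. TIMP1 was 12.5 times the FPKM of DCN in the knockout spleen and 0.333 times in the wild-type spleen.

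TIMP1 lies within the annotated span of another gene, SYN1, which encodes the synaptic vesicle protein synapsin. SYN1 had 59 fragments in the knockout spleen and 1 in the wild-type spleen, 6 and 11 in lymph node, and 2 and 8 in thymus, knockout first in each pair. The libraries are stranded, but whether fragments were counted by strand is not given in the sources used here, and the part of shared fragments was not tested. In the knockout spleen the 59 SYN1 fragments stood beside 1733 on TIMP1. EFEMP1, LOX and COL5A2 also overlap annotated genes, which are not among the listed genes, and no gene overlaps DCN, MFAP5 or THY1 in this annotation.

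**Figure D3:**
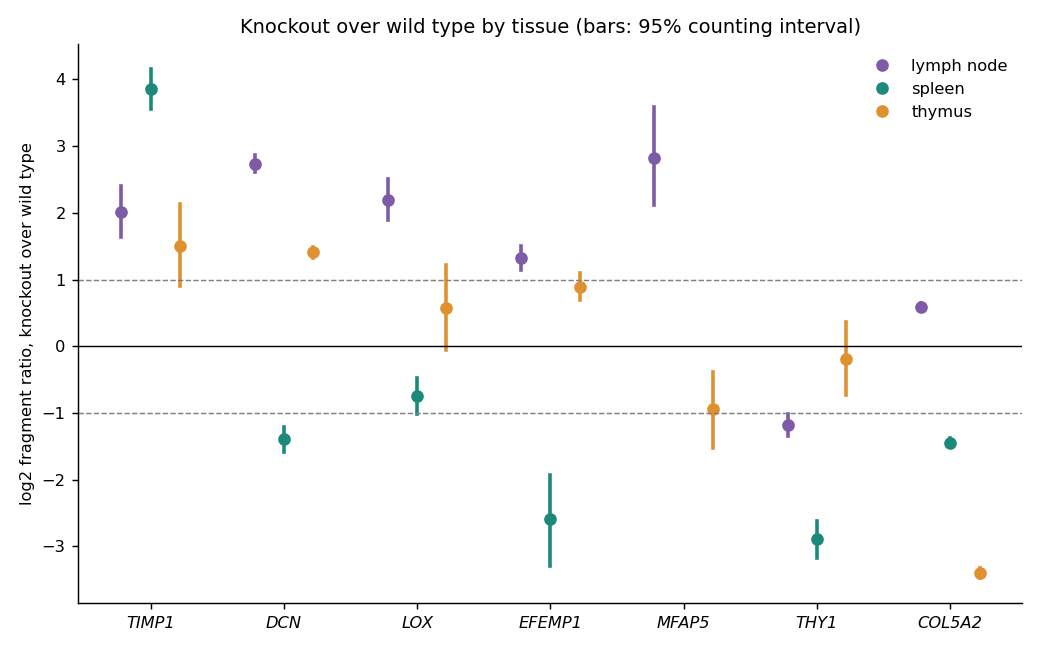
Log2 ratio of scaled fragment counts, knockout over wild type, by gene and tissue, 1 pair of libraries per point, with bars for the 95% counting interval and dashed lines at a 2-fold difference. TIMP1 lies above 0 in all 3 tissues, DCN and EFEMP1 lie above 0 in lymph node and thymus and below it in spleen, and MFAP5 in spleen is left out because it had under 10 fragments.

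No other inhibitor measured was called higher in all 3 organs. TIMP2, its relative, was higher in lymph node (431 FPKM in the knockout, 200.5 FPKM in the wild type) and thymus (531 and 241 FPKM), but not called in spleen (610.1 and 557 FPKM). The ratio of TIMP1 to TIMP2 in FPKM was 1.51 in the knockout spleen and 0.117 in the wild-type spleen. PN-1, the table's name for the thrombin and urokinase inhibitor SERPINE2, was 4.77-fold higher in the knockout spleen (4.46 to 5.10), at 921 FPKM against 194 FPKM in the wild type. CST3, the cysteine protease inhibitor cystatin C, was 3.34-fold lower there (3.18 to 3.51). SLPI, an inhibitor of neutrophil elastase, was 12.5-fold higher in the knockout lymph node (6.79 to 25.6) on 144 and 11 fragments. SERPING1, the inhibitor of complement C1, was higher in thymus, at 199.7 FPKM in the knockout and 53.6 FPKM in the wild type, and in lymph node (log2 ratio 1.30). Of 6 measured inhibitors, TIMP1 included, 4 were higher in lymph node, 2 in spleen and 3 in thymus, and 1 was lower in spleen. The list medians were 1.20, 0.26 and 0.89 in the order of lymph node, spleen and thymus, and 1.10, 0.13 and 0.64 without TIMP1.

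Matrix proteases were called in some organs and not in others. MMP2, a gelatinase made largely by fibroblasts, was 5.59-fold higher in the knockout lymph node (5.28 to 5.93), at 957 FPKM against 171 FPKM in the wild type. It was also 3.40-fold higher in thymus (2.97 to 3.91), and in spleen it stood at 130 FPKM in the knockout and 180 FPKM in the wild type, without a call. In FPKM, TIMP1 was 0.199 times MMP2 in the knockout and 0.279 times in the wild-type lymph node, and 0.494 and 0.592 times in thymus. In spleen it was 7.07 times MMP2 in the knockout and 0.361 times in the wild type. MMP9, a gelatinase of neutrophils and macrophages, was 10.5-fold lower in the knockout lymph node (6.51 to 17.7) and 5.99-fold higher in the knockout spleen (2.97 to 13.7), on 63 and 9 fragments. MMP14, a membrane-bound activator of MMP2 that TIMP1 inhibits poorly, was higher in lymph node (449 FPKM in the knockout, 197 FPKM in the wild type) and thymus (156 and 43.1 FPKM). ADAMTS1, a secreted protease that cleaves proteoglycans, was higher in lymph node, at 55.1 FPKM in the knockout and 18.1 FPKM in the wild type. MMP3, stromelysin, was 8.09-fold lower in the knockout spleen (5.47 to 12.4), and PLAU, the urokinase plasminogen activator, was higher there (log2 ratio 1.04). The matrix protease list had 4 genes higher and 1 lower of 12 measured in lymph node, 2 and 1 of 13 in spleen, and 5 and 1 of 13 in thymus. Its medians were 0.12, 0.10 and 0.69 in the same order of organs.

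**Figure D4:**
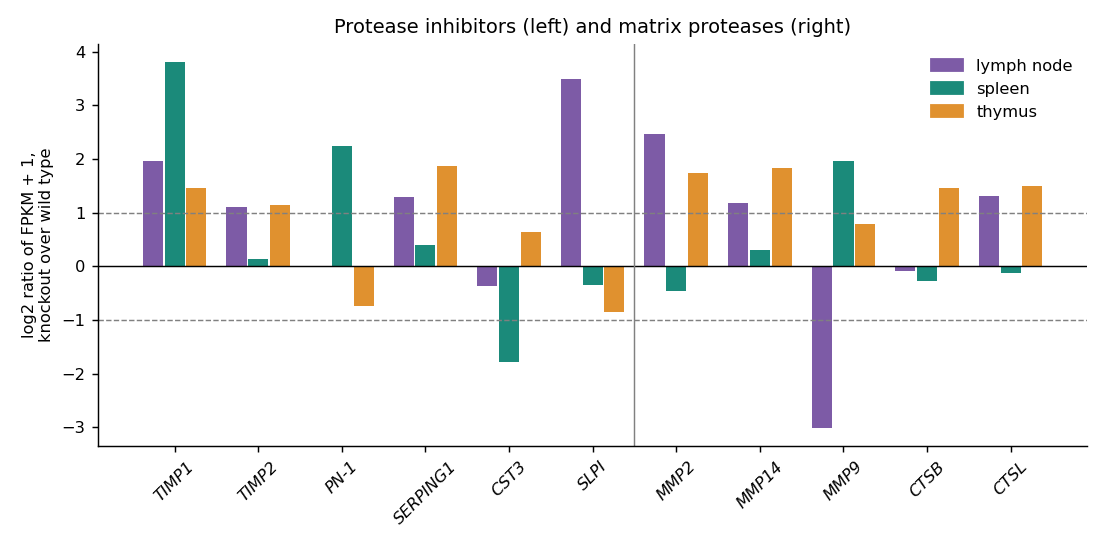
Log2 ratio of FPKM + 1, knockout over wild type, for 6 protease inhibitors and 5 matrix proteases, 1 bar per tissue, with dashed lines at the size of a call. TIMP1 has a ratio of 3.80 in spleen, where TIMP2 has 0.13 and MMP2 has -0.47.

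A proteoglycan and 2 glycoproteins were higher in the knockout spleen, the organ in which COL1A2, COL3A1, COL5A2 and DCN were lower. VCAN, the large proteoglycan versican, was 5.79-fold higher (5.12 to 6.56), at 49.7 FPKM in the knockout and 8.58 FPKM in the wild type. THBS1 (thrombospondin) had 577 FPKM in the knockout and 172 FPKM in the wild-type spleen, and TNC (tenascin C) had 679 and 218 FPKM in the same order of genotype. Both were also higher in thymus and uncalled in lymph node. In lymph node the glycoproteins called higher were SPARCL1 (4.77-fold, 4.45 to 5.13), MGP, a calcification inhibitor, and POSTN (periostin, outside the naming rule and chosen after its values were seen), and CCN2, a growth factor that promotes fibrosis, was lower. Counts for this list were 3 higher and 1 lower of 7 in lymph node, 2 and 0 of 7 in spleen, and 4 and 1 of 7 in thymus, with medians of 0.79, 0.23 and 1.01. For proteoglycans with DCN included they were 2 and 1 of 8, 1 and 3 of 7, and 4 and 2 of 7, with medians of 0.67, -0.57 and 1.07. Without DCN the medians were 0.64, -0.50 and 0.43, and with DCN but no minimum level the thymus median turned to -0.065.

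TGF-beta signalling genes, which control matrix production, were mostly uncalled. Of 16 measured in lymph node 2 were higher (list median 0.48), FST, the activin antagonist follistatin (log2 ratio 1.61), and ACVR2A, an activin receptor (1.23). In spleen the ligand TGFB3 was higher at 1.43, with 84.0 FPKM in the knockout and 30.5 FPKM in the wild type, and the receptor BMPR1B was lower on 1 and 25 fragments (16 measured, median -0.35). In thymus 2 of 17 were higher, BMPR1B and ACVR2A, and the ligand BMP7 was lower (median 0.23). The list of cytokine and AP-1 factors known to act on TIMP1 had FOS (2.82) and C-JUN (1.13) higher in lymph node and the cytokine LIF lower on 1 and 5 fragments (12 measured, median 0.21). In spleen the receptor gene IL6R was lower (-1.15), and the kinase JAK1 was higher on 13 and 2 fragments (12 measured, median 0.20). In thymus the kinase JAK2 was called higher from FPKM and LIF lower on 0 and 3 fragments (11 measured, median 0.36). Over all 10 lists without the 7 members, lymph node had 17 higher and 4 lower of 70 measured (median 0.51). These are 24.3% and 5.71%, where 15.3% of all measured genes lay higher and 10.3% lower. In spleen 9 were higher and 8 lower (median -0.23), or 12.9% and 11.4% against 8.88% and 10% of all genes. In thymus 19 were higher and 7 lower (median 0.36), or 27.1% and 10% against 15.2% and 10.9%. The lower counts in spleen and thymus thus lay near the share of all genes. The lists were chosen with earlier results known, and these shares were not tested.

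Markers of other cell types moved with genotype in the same libraries. In the knockout lymph node, where DCN, MFAP5, LOX, EFEMP1 and TIMP1 were higher, all 12 adipocyte markers were higher, with a sum of 9911 FPKM in the knockout and 173 FPKM in the wild type. Among them ADIPOQ stood at 7483 and 27.2 FPKM, knockout first, and DGAT2 and PCK1 were at 0 fragments in the wild type. Smooth muscle markers were higher in 5 of 7 cases (2228 and 1166 FPKM summed), blood endothelial markers in 2 of 4 (2256 and 1246 FPKM) and macrophage markers in 3 of 7 (14392 and 9329.8 FPKM). The red-cell genes HBB and HBE1 were called higher there as well (6745 and 376 FPKM summed, HBE1 on 6 and 0 fragments), with HBB 18.3-fold higher (16.4 to 20.4). In thymus HBB was 5.24-fold higher (4.88 to 5.64), at 4782 FPKM in the knockout and 911.8 FPKM in the wild type, while HBE1 was called lower on 0 and 2 fragments. The part of these cells in the differences was not tested.

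In spleen all 5 neutrophil markers were higher, with a sum of 1751 FPKM in the knockout and 42.4 FPKM in the wild type. The same markers were higher in the other organs, where TIMP1 was also higher: 4 of 4 in lymph node (592 and 13.4 FPKM, knockout first) and 5 of 5 in thymus (2169 and 118 FPKM). RETN, the resistin gene on this list, was at 0 fragments in the wild-type lymph node and thymus. Macrophage markers in spleen were 2 higher and 1 lower of 7 (21922 and 28623 FPKM summed). Adipocyte markers there were 2 higher and 2 lower of 9 (264 and 292 FPKM), with CIDEA, DGAT2, LEP and PLIN1 at 0 fragments in the knockout. PPARG alone made up 230 FPKM of this sum in the knockout and 245 FPKM in the wild type. The lower calls, CIDEC and DGAT2, rested on 1 and 8 and on 0 and 1 fragments, knockout first. The higher calls, AQP7 and PCK1, rested on 11 and 2 and on 42 and 12 fragments. Smooth muscle markers in spleen were 0 higher and 1 lower of 7 (6429 and 7205 FPKM). In thymus 9 of 11 adipocyte markers were higher (1882 and 518 FPKM), 8 of 10 T-cell markers were lower (3309 and 8472 FPKM), 6 of 7 macrophage markers were higher and 1 lower (2587 and 1026 FPKM), and all 4 endothelial markers were higher (226 and 92.0 FPKM). KRT8 and WT1, the mesothelial markers present, summed to 69.7 FPKM in the knockout and 88.7 FPKM in the wild-type spleen. In thymus KRT8 alone stood at 507 FPKM in the knockout and 851 FPKM in the wild type, with WT1 at 0 fragments in both. The 2 markers thus did not go together across organs. The part of any of these in the members' differences was not tested.

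**Figure D5:**
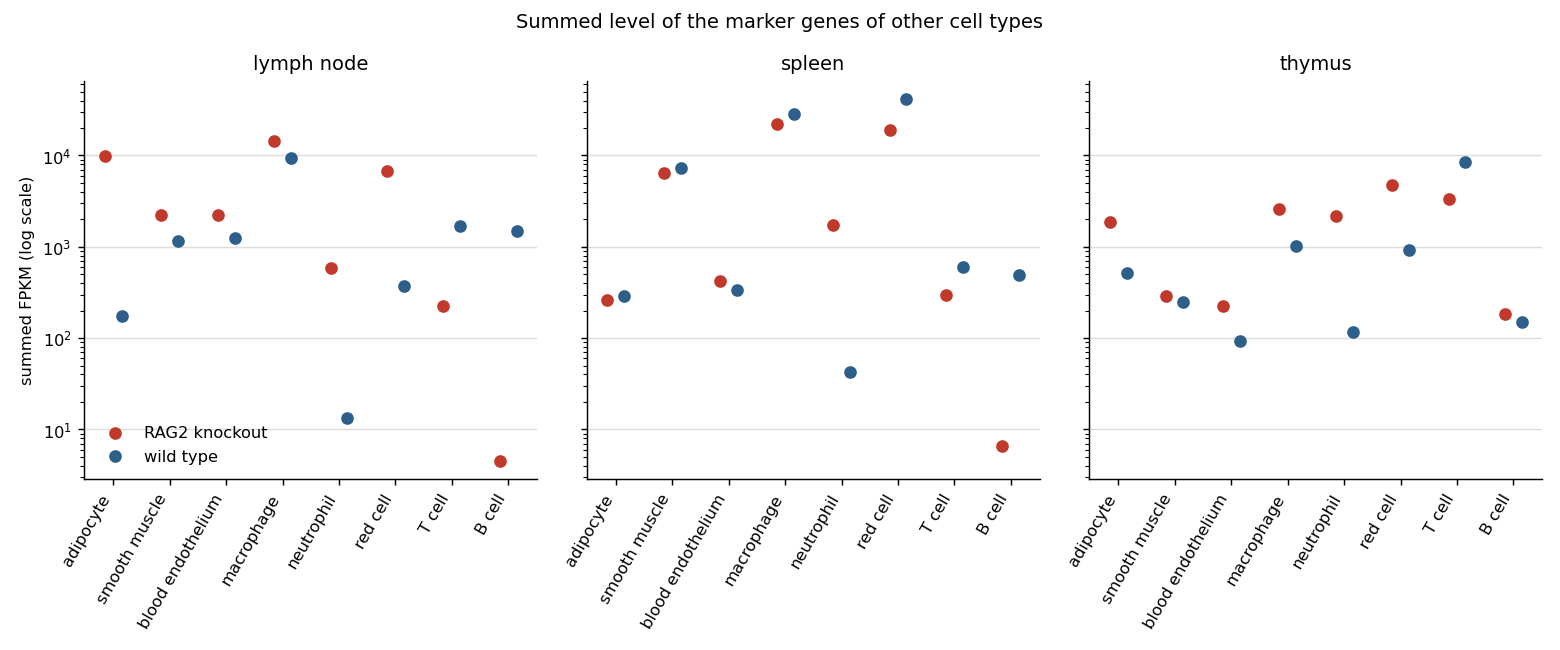
Summed FPKM, on a log scale, of the marker genes of 8 other cell types in the knockout (red) and wild-type (blue) library of each tissue. In spleen the adipocyte sum is mostly PPARG, at 230 FPKM in the knockout and 245 FPKM in the wild type. Adipocyte markers reach 9911 FPKM in the knockout lymph node, and neutrophil markers are higher in the knockout in each tissue, at 592, 1751 and 2169 FPKM against 13.4, 42.4 and 118 FPKM in the wild type.

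Likeness of pattern was measured by the root mean square difference of the 3 log2 ratios, over 2451 genes that were measured in every tissue with at least 10 fragments in either library. Among the members other than MFAP5 the nearest pair was DCN and LOX (0.71), followed by DCN and EFEMP1 and by EFEMP1 and LOX (0.98 each). THY1 and TIMP1 were the farthest apart (4.40). Nearest to EFEMP1 of all genes was SGCE, a sarcoglycan, at 0.14, with ratios of 1.14 in lymph node, -2.00 in spleen and 0.80 in thymus. Nearest to DCN was RAG-1 (0.33) and to LOX the hydrogen peroxide-degrading enzyme CAT (0.19). The RAG-1 ratio in spleen rests on 1 fragment in the knockout and 19 in the wild type. At 0.0963 and 2.14 FPKM that ratio depends strongly on the added 1 FPKM, so this likeness is uncertain. No nearest gene is given for MFAP5, whose spleen ratio rests on 0 and 3 fragments and ran from -4.43 to -0.50 over the alternatives. Nearest to COL5A2 was CDH24, a cadherin (0.47), to THY1 RGS4, a regulator of G-protein signalling (0.34), and to TIMP1 the interleukin-1 decoy receptor IL1R2 (0.40). IL1R2 had ratios of 2.42 in lymph node, 3.69 in spleen and 0.94 in thymus.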

How the data were processed

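The 6 libraries were analysed, with 1 per tissue and genotype. RNeasy columns yielded the total RNA and a stranded TruSeq kit the libraries, per the labels' protocols. FastQC 0.11.9, Trimmomatic 0.39, STAR 2.7.9a, Cufflinks 2.2.1 and the build Sscrofa11.1 are named in the submitters' processing notes, with no settings. The annotation used for counting is not given in the sources used here.

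The authors deposited FPKM values and estimated counts, 1 table of each per tissue. The deposited estimated counts carry 1 factor per library, read as the most frequent value above 0; dividing by it gave whole numbers within 0.02 for 97.0 to 99.2% of values above 0, and results were rounded to whole fragments. The log2 ratios, call rule, floor of 3 fragments and intervals are as given above. Fragments per FPKM differed between the 2 libraries of a tissue by at most 1.03-fold for the 7 genes.

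With 1 library per group no test was made. A fit of genotype across tissues was not made, since tissues are not replicates of each other. The members and lists were chosen with earlier results of these data known. The genes named are the 7 members, up to 3 called genes of each list and tissue with the largest ratios, the genes most like a member, and the most abundant markers. A gene named for 1 tissue is also given in others, and not every gene the rule allows is named; exceptions are stated. Gene lists are counted over their genes present in the tables. These were 6 of 38 for collagens, 3 of 17 for elastic fibres and 3 of 23 for collagen processing. For the fibroblast surface list they were 5 of 21, so each of these lists covers a small part of its family. Symbols are those of the tables; 4 listed genes were found under another name in the reference tables. Coordinates come from the RefSeq annotation of Sscrofa11.1 and count from 1.

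Alternatives were fragments scaled to the total of listed genes, with edgeR 4.0.16 TMM factors or with DESeq2 1.42.0 size factors (0.5 CPM added to each), pseudocounts of 0.1 and 5 FPKM, a minimum of 5 FPKM or none, ratios centred on the median of all genes, and calls by the counting interval. Calculations ran in Python 3.11.15 with scipy 1.17.1, pandas 2.3.3, numpy 2.4.6 and, for figures, matplotlib 3.10.9, and were tested on simulated data.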

Additional observations from a re-analysis of the deposited data

Results flagged for a closer look

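DCN was called in opposite directions in different tissues. Its log2 ratio of knockout over wild type in lymph node exceeded that in spleen by 4.11, and the value in spleen minus that in thymus was -2.80. EFEMP1 was higher in the knockout lymph node and lower in the knockout spleen, a difference between the log2 ratios of 3.46. Each value rests on 1 library per tissue and genotype, and the differences were not tested.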

How the results depend on the processing

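The 7 genes kept the direction of their log2 ratio in all 188 values obtained under the 9 alternatives, and 185 of these moved by less than the counting interval. Much of this was fixed in advance. The changes of minimum level and the counting interval leave each ratio as it is, and a pseudocount cannot turn its sign. For MFAP5 in spleen the interval has no lower bound, so its values, from -4.43 to -0.50, could not count as moved. The members called were 6 in lymph node under every alternative, 5 or 6 in spleen, and 3 or 4 in thymus. MFAP5 in spleen lost its call with a pseudocount of 5 FPKM (-0.50), with a minimum of 5 FPKM and by the counting interval. EFEMP1 in thymus gained a call with fragments scaled to the total of listed genes (1.01), a scaling that moved the median of all genes in thymus to 0.12. With a pseudocount of 5 FPKM 166 genes were called higher and 160 lower in spleen, and 272 higher and 183 lower in thymus. The proteoglycan median in thymus (1.07) turned to -0.065 with no minimum, which adds genes near 0. Depth limits MFAP5 in spleen, at 0 and 3 fragments. No paired analysis was possible because each group has 1 library and the labels give no replicate numbers.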

Other observations

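MMP12, the macrophage elastase, was low in the knockout thymus, with 1 fragment in the knockout and 85 in the wild type, a ratio of 0.0115 (interval 0.00029 to 0.066). ACAN, the cartilage proteoglycan aggrecan, had 6 fragments in the knockout and 130 in the wild-type lymph node, 22.6-fold lower (10.1 to 62.8).

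JAK2 in thymus was called from FPKM, at 575 in the knockout and 62.6 in the wild type, whereas 685 fragments in the knockout and 615 in the wild type put the ratio at 1.09 (0.974 to 1.21).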
